A study of Mus with 9 samples.

Results

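The genes described here are 9 components of adrenergic, muscarinic and cyclic AMP (cAMP) signalling: the receptors Adrb1, Adra1a, Adra1b and Chrm2, the adenylyl cyclases Adcy5 and Adcy6, and the phosphodiesterases Pde3a, Pde4b and Pde4d. They were taken by symbol from a raw count table of 55421 mouse genes, and all 9 were found and passed the filter on low counts, as did 19326 genes in all. Bulk RNA sequencing counted reads per gene in 9 libraries from tissue labelled atria, or left atrium in the study's design text, of wild-type male C57BL/6J mice aged 8 to 10 weeks. MI_ART 1 to 3 came from infarcted mice given artesunate, an antimalarial drug dissolved in dimethyl sulfoxide and injected into the peritoneum. MI 2, MI 3 and MI 4 came from infarcted mice given vehicle, and Sham 1 to 3 from mice given vehicle after the same surgery without ligation. The titles of the Sham libraries name them CON with a suffix AF, which no title of an infarcted library carries. The left anterior descending coronary artery, which supplies the ventricle, was tied off permanently to make the infarct. The labels conflict on artesunate: 1 text gives 25 mg/kg daily for 7 days from surgery, and another 10 mg/kg every other day, begun 2 days before surgery and ended on day 7. They also conflict on the animals (mice or rats), the RNA extraction kit and the number of groups, and the day of harvest is not given. The title names atrial fibrillation after infarction, and the design allows infarcted mice to be set against sham-operated ones, with and without artesunate, and against each other.

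As background, noradrenaline and adrenaline act on heart muscle through beta-adrenergic receptors, which activate adenylyl cyclase through the stimulatory G protein Gs. The cAMP formed activates protein kinase A, which raises the rate and force of contraction, and phosphodiesterases break cAMP down in separate compartments of the cell. Acetylcholine from the vagus nerve acts on the muscarinic M2 receptor, which inhibits adenylyl cyclase through Gi and opens a potassium channel in atrial muscle. The alpha-1 adrenergic receptors use another route, through Gq, phospholipase C and protein kinase C.

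Total counts were 68046341 to 83685313 per library, and 3 counts corresponded to 0.0322 to 0.0592 CPM (depth-scaled read counts, here over library sizes after scaling with edgeR's TMM factors, a trimmed mean of ratios). The 9 genes had from 110 to 10508 counts in any library, so none was near that floor. The libraries differed in make-up. Mitochondrially encoded genes took 23.0% to 25.5% of counts in MI_ART, 12.6% to 20.6% in MI and 37.7% to 43.1% in Sham libraries. The summed CPM of 9 cardiomyocyte markers was 25200 to 34300 in MI_ART, 22100 to 31400 in MI and 52200 to 58100 in Sham libraries, and that of 8 macrophage and monocyte markers was 1580 to 3080 in MI_ART, 2360 to 2660 in MI and 278 to 431 in Sham libraries. Summed fibroblast markers (7 genes) were at 5800 to 6660 CPM in MI_ART, 6390 to 7250 CPM in MI and 1510 to 1710 CPM in Sham libraries. Neutrophil markers (5 genes) summed to 16.6 to 79.4 CPM in MI_ART, 44.4 to 110 CPM in MI and 1.32 to 1.55 CPM in Sham libraries, and smooth muscle and pericyte markers (6 genes) to 631 to 906 CPM in MI_ART, 530 to 854 CPM in MI and 1040 to 1440 CPM in Sham libraries. No marker of these lists was at 0 in any library, except neutrophil markers in MI_ART 2, Sham 2 and Sham 3. The atrial label held unevenly. Myl7, the atrial myosin light chain, was at 1.96 CPM in MI_ART 3 and at 168 to 989 CPM in the other libraries, and Myl2, its ventricular counterpart, exceeded Myl7 in every library except MI 4. Bmp10, a right atrial gene in the adult mouse heart, was at 42.0 CPM in MI 4 and at most 0.200 CPM elsewhere. Results are therefore also given without MI 4 and MI_ART 3. Summed atrial markers (7 genes) were at 1320 to 12400 CPM in MI_ART, 13500 to 25100 CPM in MI and 1790 to 7400 CPM in Sham libraries. Ventricular markers (4 genes) summed to 2920 to 4470 CPM in MI_ART, 1650 to 3030 CPM in MI and 7570 to 8440 CPM in Sham libraries. MI and Sham libraries did not overlap in either sum, also without MI 4. Leaving these libraries out thus did not even out these sums between MI and Sham. By gene, 0 of 7 atrial markers passed the edgeR test described below in MI versus Sham, with a median log2 fold change of 0.21. Of 4 ventricular markers, 2 passed as lower. The atrial sum is therefore not a measure shared by its genes, and Kcnj3, 1 of them, averaged less in MI than in Sham libraries. In bulk tissue, fewer cells of a type and less RNA per cell cannot be told apart.

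After infarction without artesunate, 7 of the 9 genes were lower in MI than in Sham libraries and none was higher, at an edgeR quasi-likelihood adjusted p under 0.05. Over all tested genes, 14.3% were lower and 18.8% higher. The lowered genes were the receptors Adra1a, Adra1b and Chrm2, both adenylyl cyclases, and the phosphodiesterases Pde3a and Pde4d. Adrb1 and Pde4b did not pass the test. All 9 log2 fold changes were negative, with a median of -0.97, against 0.04 over all tested genes. In 7 of the 9 genes the MI and Sham libraries did not overlap, as in 48.9% of all tested genes. The sums of cardiomyocyte and of smooth muscle and pericyte markers were also lower in every MI than in every Sham library. Those of fibroblast, macrophage and neutrophil markers were higher. By gene, 5 of 9 cardiomyocyte and 2 of 6 smooth muscle and pericyte markers passed the test as lower. A large part of the latter sum was Rgs5, which averaged 305 CPM in MI and 886 CPM in Sham libraries. Of 7 fibroblast markers 5 passed as higher and 1 as lower. The part of these cell types in the counts was not tested. Without MI 4 and MI_ART 3 the count was again 7 of 9, and it ranged from 3 to 7 when single libraries were left out, with the lowest count without MI 3.

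Adra1a encodes the alpha-1A adrenergic receptor, coupled to Gq, and lies on chromosome 14 at 66635251 to 66771240 (GRCm38, RefSeq annotation). It had 5.19, 4.90 and 4.86 CPM in MI_ART 1 to 3, 3.81, 1.78 and 1.19 CPM in MI 2, MI 3 and MI 4, and 11.8, 15 and 11.1 CPM in Sham 1 to 3. All 9 values fell into 3 groups without overlap, with the MI libraries lowest. Adra1a was 5.60-fold lower in MI than in Sham libraries (log2 fold change -2.49, SE 0.39, edgeR adjusted p = 0.00112). It was the only one of the 9 genes that passed the test under all 22 alternative settings tried for MI versus Sham. Its log2 fold changes ran from -3.09 to -2.18 when single libraries were left out. Chrm2, Pde3a and Pde4d kept negative log2 fold changes in all 22 but passed in 13, 20 and 20 of them.

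Adra1b, on chromosome 11 at 43774605 to 43901250, encodes the alpha-1B receptor, the close relative of Adra1a on the same Gq route. It had 15, 15 and 18.5 CPM in MI_ART 1 to 3, 13.4, 8.99 and 10.2 CPM in MI 2, MI 3 and MI 4, and 21.1, 27.9 and 14.6 CPM in Sham 1 to 3. On the TMM scale every MI library lay below every Sham library, but Sham 3 came close to MI 2. The MI_ART values lay within the Sham range. The fall was 1.95-fold in MI against Sham (log2 fold change -0.97, SE 0.26, edgeR adjusted p = 0.0164). The call was lost without MI 3 (adjusted p = 0.0592) and without Sham 2 (adjusted p = 0.0685).

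Chrm2, the gene of the M2 muscarinic receptor through which the vagus slows the heart, lies on chromosome 6 at 36387991 to 36528638. Its levels were 90.6, 131 and 77.4 CPM in MI_ART 1 to 3, 108, 96.8 and 42.9 CPM in MI 2, MI 3 and MI 4, and 188, 141 and 197 CPM in Sham 1 to 3. On the TMM scale no infarcted library reached the lowest Sham library, and MI 4 stood well below the other MI libraries. Chrm2 was 2.12-fold lower in MI than in Sham libraries (log2 fold change -1.09, SE 0.34, edgeR adjusted p = 0.0324). The adjusted p was 0.0514 without MI 3, 0.0873 without Sham 1 and 0.0995 without Sham 3, so the call was lost in each case.

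Adrb1, on chromosome 19 at 56722117 to 56725150, encodes the beta-1 adrenergic receptor, the main catecholamine receptor of heart muscle. It had 10.4, 12.1 and 8.99 CPM in MI_ART 1 to 3, 8.97, 7.71 and 6.07 CPM in MI 2, MI 3 and MI 4, and 11.1, 10.7 and 8.10 CPM in Sham 1 to 3. The MI and Sham values overlapped through Sham 3. The log2 fold change of -0.40 in MI against Sham had an interval of -0.89 to 0.10 (95% confidence) and did not pass the test (SE 0.22, edgeR adjusted p = 0.199).

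**Figure D1:**
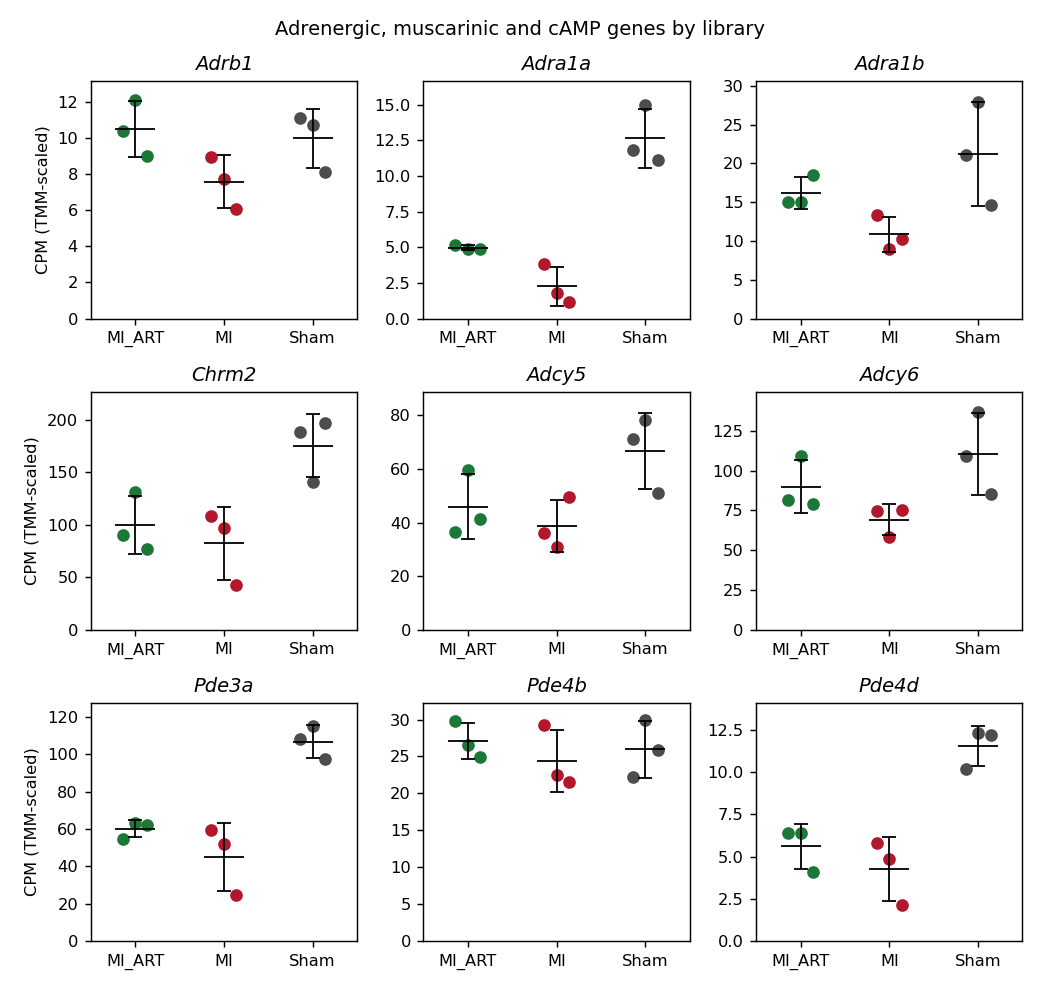
Levels of the 9 genes in CPM over TMM-scaled library sizes, with 1 point per library, grouped as MI_ART, MI and Sham; black bars give the mean and SD of 3 libraries, and each panel has its own axis from 0. On this scale, every infarcted library lies below every Sham library in Adra1a, Chrm2, Pde3a and Pde4d, whereas in Adrb1 and Pde4b the MI and Sham libraries overlap.

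Adcy5 and Adcy6 encode the adenylyl cyclases that predominate in heart muscle, both inhibited by Gi and by calcium. Adcy5, on chromosome 16 at 35154494 to 35305743, had 36.6, 59.6 and 41.5 CPM in MI_ART 1 to 3, 36.1, 30.8 and 49.7 CPM in MI 2, MI 3 and MI 4, and 71.2, 78.4 and 51.0 CPM in Sham 1 to 3. MI 4, the library with the least Chrm2 and Pde3a, had the most Adcy5 of the MI libraries and came close to Sham 3. Adcy5 was 1.72-fold lower in MI than in Sham libraries (log2 fold change -0.78, SE 0.26, edgeR adjusted p = 0.0409). That call was lost without MI 2 (adjusted p = 0.0984), MI 3 (0.122), MI_ART 3 (0.0598), Sham 1 (0.109) or Sham 2 (0.133).

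Adcy6, on chromosome 15 at 98589978 to 98610287, had 81.9, 109 and 79.2 CPM in MI_ART 1 to 3, 74.4, 58.1 and 75.5 CPM in MI 2, MI 3 and MI 4, and 109, 137 and 85.4 CPM in Sham 1 to 3. On the TMM scale all MI libraries lay below all Sham libraries, while MI_ART 2 was level with Sham 1. Adcy6 was 1.59-fold lower in MI (log2 fold change -0.67, SE 0.22, edgeR adjusted p = 0.0387), the smallest change among the 7 called genes. It passed the test in 2 of the 9 fits that left out a library, those without MI 4 and without Sham 3. In the other fits the adjusted p ran from 0.0545 to 0.148.

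Pde3a, on chromosome 6 at 141249269 to 141506862, encodes the phosphodiesterase that cyclic GMP inhibits and that cardiotonic drugs such as milrinone target. It had 54.9, 63.1 and 62.2 CPM in MI_ART 1 to 3, 59.3, 51.7 and 24.6 CPM in MI 2, MI 3 and MI 4, and 108, 115 and 97.6 CPM in Sham 1 to 3. On the TMM scale the 3 Sham libraries stood clear of all infarcted libraries, and MI 4 stood below the rest. Pde3a was 2.37-fold lower in MI than in Sham libraries (log2 fold change -1.24, SE 0.28, edgeR adjusted p = 0.00770), and it passed the test in all 9 fits that left out a library.

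Pde4d and Pde4b encode phosphodiesterases that act on cAMP only, and Pde4d is part of complexes with beta-adrenergic receptors and the ryanodine receptor. Pde4d, on chromosome 13 at 108654177 to 109955969, had 6.37, 6.39 and 4.06 CPM in MI_ART 1 to 3, 5.83, 4.83 and 2.13 CPM in MI 2, MI 3 and MI 4, and 10.2, 12.3 and 12.2 CPM in Sham 1 to 3. Again no infarcted library reached a Sham library on the TMM scale, and MI 4 was lowest. Pde4d was 2.72-fold lower in MI (log2 fold change -1.44, SE 0.35, edgeR adjusted p = 0.0112), in all 9 fits that left out a library.

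Pde4b, on chromosome 4 at 102087332 to 102607275, had 29.8, 26.6 and 24.9 CPM in MI_ART 1 to 3, 29.2, 22.5 and 21.5 CPM in MI 2, MI 3 and MI 4, and 22.2, 29.9 and 25.9 CPM in Sham 1 to 3. The 3 groups overlapped throughout. The log2 fold change in MI against Sham was -0.09, with an interval of -0.50 to 0.32 (SE 0.18, edgeR adjusted p = 0.739). Pde4b and Pde4d contain 5 and 7 other annotated genes within their bounds, and Chrm2, Adcy5 and Pde3a contain 2 each. The strand used in counting is not given in the sources used here, so reads from such overlaps may be included, whereas no annotated gene overlaps Adrb1, Adra1a, Adra1b or Adcy6.

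**Figure D2:**
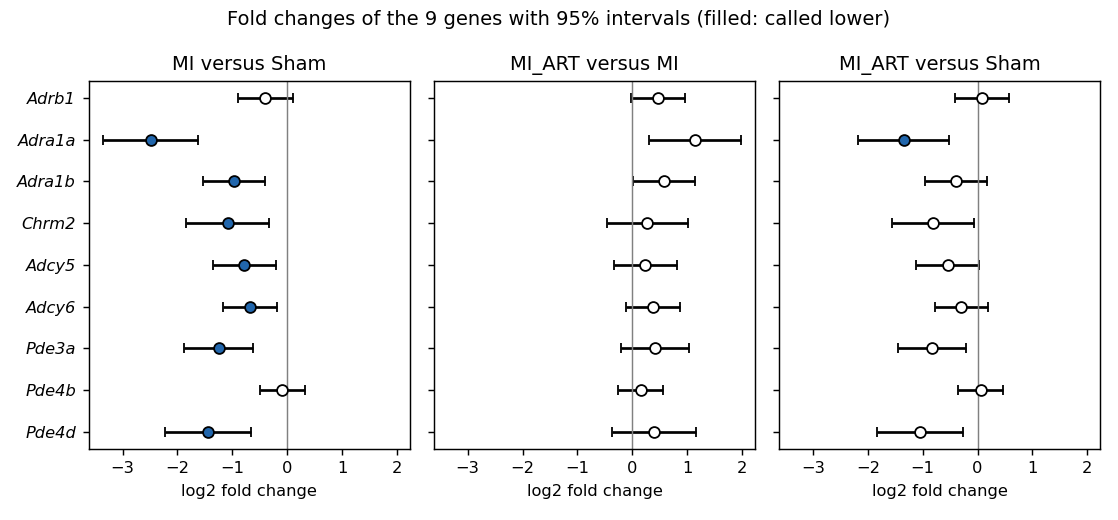
Log2 fold changes of the 9 genes with 95% intervals from the edgeR fit in the 3 comparisons; filled points passed the test as lower, at an adjusted p under 0.05. In MI versus Sham 7 genes are filled, in MI_ART versus MI none, and in MI_ART versus Sham Adra1a alone.

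The number of genes called lower rested on how libraries were scaled. So did the lack of overlap between libraries, which is given on the TMM scale. Before scaling, Pde3a had 5204 counts in MI 2 and 5098 in Sham 3, and Chrm2 had 10508 in MI_ART 2 and 7120 in Sham 2. Adra1a kept apart in unscaled counts, with at most 421 in infarcted (MI_ART 1) and at least 581 in Sham libraries (Sham 3). The TMM factors were 1.14 to 1.17 in MI_ART, 1.19 to 1.28 in MI and 0.624 to 0.744 in Sham libraries, along with the higher mitochondrial share in Sham libraries. With total counts as the scale, the median log2 fold change of all tested genes in MI versus Sham was 0.88, and 49.3% of genes were called higher and 3.33% lower. Adra1a was then the only one of the 9 genes called lower (log2 fold change -1.67, edgeR adjusted p = 0.00439), and Pde4b was called higher (0.75, adjusted p = 0.00813). With total counts that leave out the 37 mitochondrially encoded genes the median was 0.42, with 30.6% of genes higher and 7.18% lower, and Adra1a, Pde3a and Pde4d were lower. With TMM all 9 genes were below the median of all tested genes, at differences from it of -0.13 (Pde4b) to -2.52 (Adra1a) on the log2 scale. The same held with both total-count scalings and the cardiomyocyte scaling described next. A change of scale moves every gene and the median nearly alike, so these scalings add no separate evidence on that position.

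Scaling on the 9 cardiomyocyte markers asks how the genes stood relative to the muscle transcripts of the same library. The median of all tested genes was then 1.13 in MI versus Sham, with 53.4% of genes higher and 2.42% lower. On this scale Adra1a was lower (log2 fold change -1.55, edgeR adjusted p = 0.00299), and Adrb1 (0.66, adjusted p = 0.0485) and Pde4b (0.96, adjusted p = 0.00975) were higher. The log2 fold changes were -0.10 for Chrm2, -0.26 for Pde3a and -0.47 for Pde4d, and 0.09 for Adra1b, 0.37 for Adcy5 and 0.43 for Adcy6, none of which passed the test. In the TMM fit, macrophage and monocyte markers passed the test as higher in MI than in Sham libraries in 8 of 8 genes, against 18.8% of all tested genes. Their calls with cardiomyocyte scaling are not given here.

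**Figure D3:**
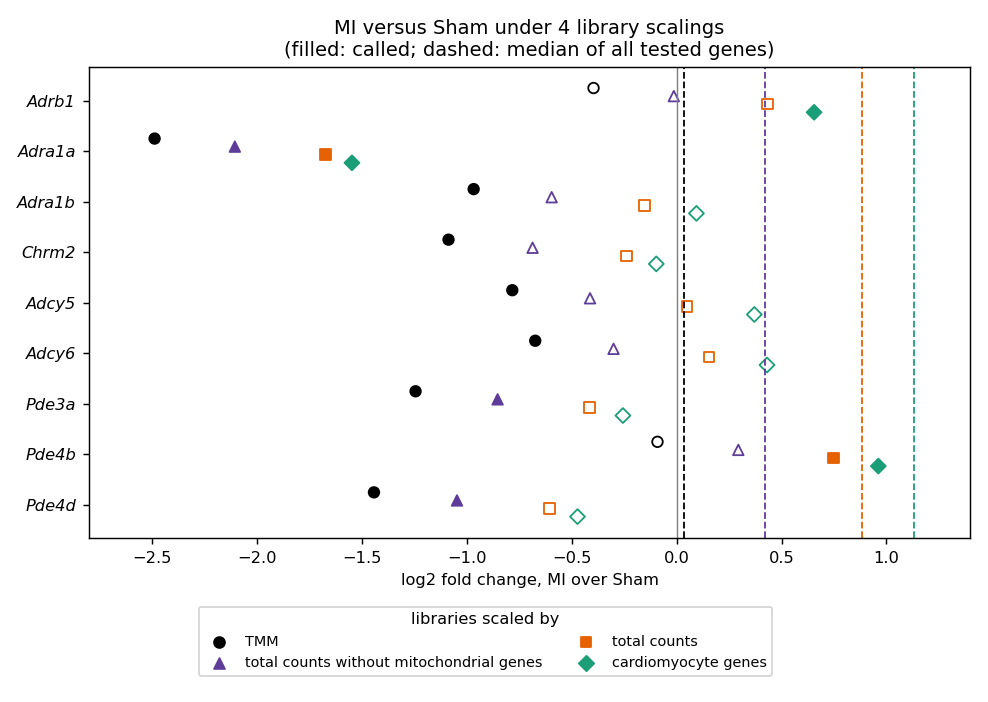
Log2 fold change of each gene in MI over Sham under 4 scalings of the libraries (circles TMM, triangles total counts without mitochondrially encoded genes, squares total counts, diamonds cardiomyocyte markers); filled symbols passed the test, and dashed lines give the median of all tested genes on each scale. Each gene shifts to the right together with the median of all genes, and Adra1a stays filled and below 0 on every scale.

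A ratio of 2 genes within a library does not depend on how libraries are scaled. Of 15 such comparisons tested, 7 showed no overlap between groups, but with 3 libraries against 3 a two-sided exact permutation test cannot go below p = 0.1, and the adjusted p (Benjamini-Hochberg over the 15) was 0.214 for each of the 7. The counts of Pde4b over Pde4d were 4.67, 4.17 and 6.14 in MI_ART 1 to 3, 5.01, 4.67 and 10.1 in MI 2 to 4, and 2.18, 2.43 and 2.12 in Sham 1 to 3. The ratio was 2.76-fold higher in MI and 2.20-fold higher in MI_ART than in Sham libraries, with every infarcted library above every Sham library. Within the infarcted libraries MI 4 had the highest ratio.

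The counts of Adra1a over Adra1b were 0.347, 0.327 and 0.263 in MI_ART 1 to 3, 0.286, 0.198 and 0.117 in MI 2 to 4, and 0.562, 0.539 and 0.763 in Sham 1 to 3. The ratio was 3.27-fold lower in MI and 1.98-fold lower in MI_ART than in Sham libraries, and the MI_ART and MI libraries overlapped. Chrm2 over Adrb1, the muscarinic against the beta-1 receptor, was 8.68, 10.9 and 8.62 in MI_ART 1 to 3, 12.0, 12.6 and 7.07 in MI 2 to 4, and 16.9, 13.1 and 24.3 in Sham 1 to 3. It was 1.72-fold lower in MI and 1.88-fold lower in MI_ART than in Sham libraries, without overlap, though MI 3 and Sham 2 lay close together. Adcy5 over Adcy6 and Pde3a over Pde4d overlapped between MI and Sham libraries, with differences of -0.13 and 0.22 on the log2 scale. Between MI_ART and Sham libraries Adcy5 over Adcy6 did not overlap, at 0.447, 0.546 and 0.524 in MI_ART 1 to 3, against 0.654, 0.570 and 0.597 in Sham 1 to 3, a difference of -0.27. Since read counts are not set against transcript length here, a ratio shows a difference between groups and not which gene had more transcripts.

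**Figure D4:**
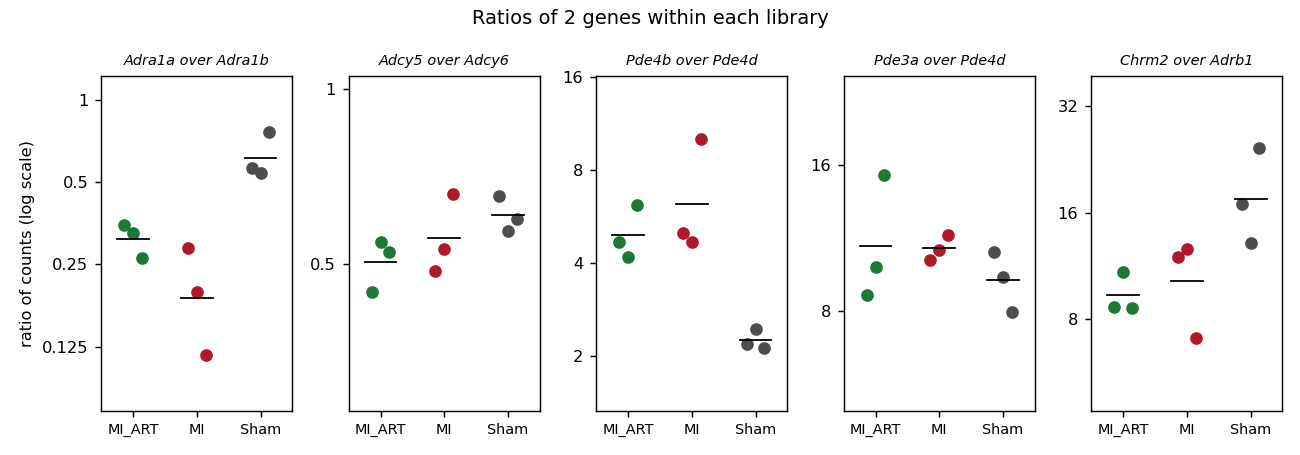
Ratios of the counts of 2 genes in each library, on a log scale, grouped as MI_ART, MI and Sham; black lines give the geometric mean of 3 libraries. Pde4b over Pde4d lies at 2.12 to 2.43 in Sham libraries and at 4.17 or more in infarcted ones, and Adra1a over Adra1b lies at 0.539 or more in Sham libraries and at 0.347 or less in infarcted ones.

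Between artesunate-treated and vehicle-treated infarcted mice, none of the 9 genes passed the edgeR test in MI_ART versus MI, where 0.0103% of all tested genes did, and none passed with DESeq2. At an unadjusted p under 0.05 there were 2 of the 9, Adra1a and Adra1b, as against 6.96% of all tested genes. All 9 log2 fold changes were positive, with a median of 0.39 against -0.003 over all genes; with cardiomyocyte scaling those of Adcy5 (-0.15) and Pde4b (-0.10) were negative, where the median of all genes was -0.30. This comparison uses the same MI libraries as MI versus Sham, so low MI values enter both with opposite sign. On the TMM scale the MI_ART libraries lay above all MI libraries in 4 of the 9 genes (Adrb1, Adra1a, Adra1b and Adcy6). MI_ART and MI libraries did not overlap in 13.9% of all tested genes. For Adrb1 the gap was 8.99 CPM in MI_ART 3 against 8.97 CPM in MI 2, with unscaled counts of 729 and 788. Unscaled counts of Adcy6 also overlapped (6425 in MI_ART 3, 7011 in MI 4), whereas those of Adra1a and Adra1b did not.

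Adra1a averaged 4.98 ± 0.184 CPM in MI_ART and 2.26 ± 1.38 CPM in MI libraries (SD, n = 3 each). The log2 fold change was 1.14, with an interval of 0.31 to 1.97 (SE 0.37, edgeR adjusted p = 0.685). The 3 MI_ART libraries agreed closely, and MI 2 was the MI library nearest to them. Adra1b averaged 16.1 ± 2.03 CPM in MI_ART and 10.8 ± 2.26 CPM in MI libraries (log2 fold change 0.58, SE 0.25, adjusted p = 0.716). For Adrb1 the log2 fold change was 0.47 with an interval of -0.02 to 0.96, and for Adcy6 it was 0.38 with an interval of -0.11 to 0.86. The other 5 genes had overlapping libraries and log2 fold changes of 0.15 (Pde4b) to 0.41 (Pde3a). MI 4 was the lowest MI library in 6 of the 9 genes, and without it the values in MI_ART versus MI were -0.03 for Chrm2, 0.07 for Pde4d, 0.11 for Pde3a and 0.83 for Adra1a.

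Against sham-operated mice, 1 of the 9 genes was lower in MI_ART libraries, Adra1a, and none was higher. Over all tested genes, 7.41% were lower and 12.9% higher. Adra1a was 2.54-fold lower (log2 fold change -1.34, SE 0.37, edgeR adjusted p = 0.0301), with all MI_ART libraries below all Sham libraries. The call was lost when any 1 of the MI_ART or Sham libraries was left out, with an adjusted p of 0.0658 to 0.0992. Libraries of MI_ART and Sham did not overlap in 4 of the 9 genes, Adra1a, Chrm2, Pde3a and Pde4d, as in 48.2% of all tested genes. Pde4d (log2 fold change -1.05, adjusted p = 0.0609), Pde3a (-0.83, adjusted p = 0.0626) and Chrm2 (-0.81, adjusted p = 0.120) did not pass the test. The number called here ranged from 0 to 4 when single libraries were left out, with the highest count without MI 4, which is not in the comparison but enters the shared estimate of spread. Adrb1 (0.07) and Pde4b (0.06) had positive log2 fold changes under TMM, and the other 7 genes negative ones. Without MI 4 and MI_ART 3, Adra1a, Pde3a and Pde4d were lower. The directions again moved with the scale. With total counts, where 41.6% of all tested genes were higher and 0.642% lower, Adrb1 (log2 fold change 0.80, edgeR adjusted p = 0.0225) and Pde4b (0.80, adjusted p = 0.00800) were called higher and Adra1a did not pass (-0.62, adjusted p = 0.203). With cardiomyocyte scaling, where 32.9% of genes were higher and 0.517% lower, the same 2 genes were called higher, at 0.87 and 0.86. With total counts that leave out mitochondrially encoded genes, where 24% were higher and 2.06% lower, none of the 9 passed. The median log2 fold change of all tested genes was 0.75, 0.81 and 0.41 on these 3 scales.

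The order of the group means was Sham, then MI_ART, then MI in 7 of the 9 genes, and MI_ART, then Sham, then MI in Adrb1 and Pde4b. The libraries behind these means often overlapped. MI_ART and Sham overlapped in Adrb1, Adra1b, Adcy5, Adcy6 and Pde4b, and MI_ART and MI in Chrm2, Adcy5, Pde3a, Pde4b and Pde4d. MI and Sham overlapped in Adrb1 and Pde4b. The lowest of the 9 libraries was MI 4 in 6 genes and MI 3 in 3, and the highest was Sham 2 in 7 genes. MI 4 did not stand low in all genes. Its log2 difference from the Sham mean was -3.38 in Adra1a, -2.42 in Pde4d, -2.12 in Pde3a and -2.01 in Chrm2, but -0.40 in Adcy5 and -0.52 in Adcy6, where MI 2 and MI 3 lay lower.

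The genes most like each member over the 9 libraries, by Pearson correlation of log2 CPM are given as a description. The search took in 12940 tested genes with a RefSeq name and a mean of at least 1 CPM, leaving out names that begin with Gm and a number or end in Rik. All correlations rest on the same 9 libraries, and those of deviations from the group means were 0.855 to 0.991 for the genes named. Adra1a was most like Pcnt (0.998), Kcnip2 (0.996) and Cacna1s (0.994). Pde3a was most like Usp13, Klhl31 and Snhg14 (0.994 to 0.996), Pde4d most like Cul3, Htatsf1 and Zfp933 (0.988 to 0.994), and Chrm2 most like Ercc5, Cap2 and Slc47a1 (0.993 to 0.996). Adra1b was most like Bcl9, Tmem63b and Ubxn10 (0.963 to 0.985), Adcy5 most like Lrrc4b, Wfdc1 and Pgam2 (0.967 to 0.975), and Adcy6 most like Rnf123, Gpc1 and Plin4 (0.974 to 0.976). Adrb1 (Tnrc6a, Ush1c and Ets2, 0.923 to 0.945) and Pde4b (Nova2, Tnpo3 and Ston2, 0.875 to 0.924) had no match as close as these.

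The 9 genes belong to a wider pathway, for which 12 lists of other components by role held 111 genes in the table, 106 of them tested. In MI versus Sham 20 were higher (18.9%, against 18.8% of all tested genes) and 24 lower (22.6%, against 14.3%), with a median log2 fold change of -0.07. None of the 106 passed in MI_ART versus MI, while 14 were higher (13.2%, against 12.9% of all tested genes) and 7 lower (6.6%, against 7.41%) in MI_ART than in Sham libraries. With total counts as the scale the split in MI versus Sham was 53 higher (50%) and 4 lower (3.77%), near the shares of all tested genes on that scale (49.3% and 3.33%), and with cardiomyocyte scaling it was 61 higher and 1 lower. Of the 44 called in MI versus Sham, 27 passed in all 9 fits that left out a library, and of the 21 called in MI_ART versus Sham 8 did. With total counts, which place the median of all tested genes at 0.88 rather than 0.04, Maob, Slc22a3, Pkia and Rgs5 were the 4 called lower. With cardiomyocyte scaling Maob alone was called lower. Akap1, Kcnj5, Plcb4, Prkce and Rapgef4, named below as lower, thus passed on neither of these scales. Of the 24 lower genes 7 changed sign under at least 1 of the 3 other scalings (Pde7a, Prkaca, Prkar2a, Pkig, Akap9, Bves and Rgs4). The directions of single genes are given under TMM. On that scale, 5 of 9 cardiomyocyte markers were called lower and 8 of 8 macrophage and monocyte markers higher in MI versus Sham. In MI_ART versus Sham these counts were 4 of 9 and 8 of 8.

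Of 8 other adrenergic and muscarinic receptors tested, 1 was lower in MI, Adra2b, the alpha-2B receptor, at 0.132 ± 0.0429 CPM in MI and 0.681 ± 0.327 CPM in Sham libraries (log2 fold change -2.36, adjusted p = 0.0194, lost without Sham 1 or Sham 2). Chrm1, the M1 receptor, was called higher in MI_ART than in Sham libraries, with 152, 45 and 4 counts in MI_ART 1 to 3 and no count in any Sham library. Set against a floor of 3 counts per Sham library, its mean was at least 14.5-fold higher (at least 5.34-fold without MI_ART 1), and the call was lost without MI_ART 1, MI_ART 2, MI 3 or any Sham library.

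Among 10 genes of G proteins, 4 were higher in MI and none lower. Gnai2, an inhibitory alpha subunit, averaged 236 ± 49.0 CPM in MI and 116 ± 15.3 CPM in Sham libraries (log2 fold change 1.03, adjusted p = 0.00342). Gnb2, a beta subunit, had a log2 fold change of 1.09 (adjusted p = 0.0133), lost without Sham 3. Gnai3, another inhibitory alpha subunit, averaged 66.3 ± 11.1 CPM in MI_ART and 36.3 ± 1.4 CPM in Sham libraries (0.87, adjusted p = 0.0158, held in 4 of the 9 fits that left out a library). Gnas, which encodes the stimulatory alpha subunit, did not pass the test, at 449 CPM in MI and 494 CPM in Sham libraries (adjusted p = 0.558).

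Of 7 other adenylyl cyclases tested, 2 were higher in MI and none lower, whereas Adcy5 and Adcy6 were both lower. Adcy3 averaged 6.89 ± 1.27 CPM in MI and 3.38 ± 0.233 CPM in Sham libraries (log2 fold change 1.02, adjusted p = 0.00623), and Adcy4 averaged 24.0 ± 4.35 CPM in MI and 14.1 ± 1.65 CPM in Sham libraries (0.77, adjusted p = 0.00874). Both were also higher in MI_ART than in Sham libraries, by 0.87 and 0.61 on the log2 scale, calls that held in 4 and 2 of the 9 fits that left out a library.

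The 15 other phosphodiesterases divided, with 2 higher and 4 lower in MI. Pde1b and Pde1a, which calcium and calmodulin activate, rose. Pde1b had 12.0, 12.3 and 21.9 CPM in MI 2, MI 3 and MI 4, against 3.32, 5.12 and 1.88 CPM in Sham 1 to 3 (log2 fold change 2.16, adjusted p = 0.00239). Pde1a was higher by 1.18 (adjusted p = 0.000799), and in MI_ART against Sham these genes were higher by 1.76 and 1.04. Pde7b, a cAMP-specific enzyme, fell by 1.57 in MI (adjusted p = 0.00477), and Pde4c fell by 1.85 (adjusted p = 0.0372), a call that held in 2 of the 9 fits that left out a library.

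Among 9 subunits and inhibitors of protein kinase A, 1 was higher and 4 lower in MI. The inhibitor gene Pkia averaged 127 ± 52.0 CPM in MI and 379 ± 48.1 CPM in Sham libraries (log2 fold change -1.57, adjusted p = 0.00276), and the inhibitor gene Pkib averaged 3.00 ± 1.99 CPM in MI and 0.471 ± 0.111 CPM in Sham libraries (2.66, adjusted p = 0.0108). The regulatory subunit Prkar2a fell by 0.89 under TMM but not with cardiomyocyte scaling (adjusted p = 0.0357, held in 2 of the 9 fits). The catalytic subunit Prkaca averaged 110 ± 9.98 CPM in MI_ART and 165 ± 26.5 CPM in Sham libraries (-0.59 under TMM, adjusted p = 0.0341, held in 4 of the 9 fits, and positive with total counts or cardiomyocyte scaling). Of 10 anchoring proteins, which hold protein kinase A near its targets, 5 were lower and none higher. Akap1, which anchors at mitochondria, averaged 54.0 ± 17.4 CPM in MI and 137 ± 18.2 CPM in Sham libraries (-1.34, adjusted p = 0.00208), and Akap5 fell by 1.63 (adjusted p = 0.0498, held in 3 of the 9 fits).

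Of 5 other cAMP effectors 2 were lower in MI. Rapgef4, the exchange factor Epac2 that cAMP activates, averaged 10.9 ± 5.22 CPM in MI and 33.9 ± 3.34 CPM in Sham libraries (log2 fold change -1.64, adjusted p = 0.00643), and Bves, a cAMP-binding membrane protein, fell by 0.74 under TMM but not with total counts or cardiomyocyte scaling (adjusted p = 0.0327, held in 5 of the 9 fits). None of 8 cAMP-responsive transcription factors and coactivators passed the test in any comparison; Atf1, named as the gene of that list with the highest mean level, had a log2 fold change of -0.44 in MI against Sham (adjusted p = 0.105).

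Receptor kinases, arrestins and RGS proteins, which end receptor signals, had 6 higher and 2 lower of 12 in MI. Arrb2, beta-arrestin 2, had 32.0, 38.7 and 57.2 CPM in MI 2, MI 3 and MI 4, against 7.36, 6.32 and 7.66 CPM in Sham 1 to 3 (log2 fold change 2.58, adjusted p = 0.000209). Rgs10 averaged 21.1 ± 3.16 CPM in MI and 4.16 ± 0.240 CPM in Sham libraries (2.34, adjusted p = 6.09e-05). Rgs5, also a pericyte marker, averaged 305 ± 111 CPM in MI and 886 ± 51.9 CPM in Sham libraries (-1.54, adjusted p = 0.00171), and Rgs4 fell by 0.70 under TMM but not with total counts or cardiomyocyte scaling (adjusted p = 0.0139, lost without Sham 2). Arrb1, beta-arrestin 1, was higher in MI_ART than in Sham libraries (log2 fold change 2.60, adjusted p = 0.0369), but its libraries divided within groups, with 8.95, 36.3 and 36.4 CPM in MI_ART 1 to 3 and 29.4, 5.07 and 8.11 CPM in MI 2, MI 3 and MI 4, against 3.54, 7.43 and 2.55 CPM in Sham 1 to 3. That call was lost without MI_ART 2, MI_ART 3 or any Sham library.

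On the alpha-1 arm of the pathway, 4 of 8 phospholipase C and protein kinase C genes were higher and 2 lower in MI. Prkcb averaged 5.96 ± 0.587 CPM in MI and 1.24 ± 0.526 CPM in Sham libraries (log2 fold change 2.27, adjusted p = 0.000841), and Plcb2 averaged 7.82 ± 0.386 CPM in MI and 1.92 ± 0.277 CPM in Sham libraries (2.02, adjusted p = 0.000449). Both are known as genes of blood cells. Prkce, an isoform of heart muscle, fell by 1.36 (adjusted p = 0.00433), and Plcb4 fell by 1.24 (adjusted p = 0.00647).

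The potassium channel that Chrm2 opens is built from Kcnj3 and Kcnj5. Kcnj5 had 39.0, 48.9 and 25.7 CPM in MI_ART 1 to 3, 35.2, 43.4 and 32.8 CPM in MI 2, MI 3 and MI 4, and 103, 65.2 and 71.4 CPM in Sham 1 to 3. Under TMM it was lower in MI (log2 fold change -1.10, adjusted p = 0.0101) and in MI_ART (-1.08, adjusted p = 0.0182) than in Sham libraries. The MI_ART call was lost without Sham 1, MI_ART 1 or MI_ART 3. In MI against Sham the value was -0.26 with total counts (adjusted p = 0.446) and -0.004 with cardiomyocyte scaling (adjusted p = 0.992). Neither scale gave a call in MI_ART against Sham. Kcnj3 averaged 11.2 CPM in MI and 34.3 CPM in Sham libraries and did not pass the test (log2 fold change -1.61, adjusted p = 0.0781). Among 12 tested genes of transmitter synthesis, uptake and breakdown, 1 was higher and 3 lower in MI. Maob, monoamine oxidase B, had 26.1, 19.8 and 12.6 CPM in MI 2, MI 3 and MI 4, against 92.1, 82.2 and 107 CPM in Sham 1 to 3 (-2.27, adjusted p = 0.000290), and its log2 fold change in MI_ART against Sham was -1.56 (adjusted p = 0.00306). Slc22a3, a transporter that takes up catecholamines outside neurons, fell by 2.00 in MI (adjusted p = 0.00528), and Maoa, monoamine oxidase A, rose by 0.52 (adjusted p = 0.0489, held in 2 of the 9 fits).

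**Figure D5:**
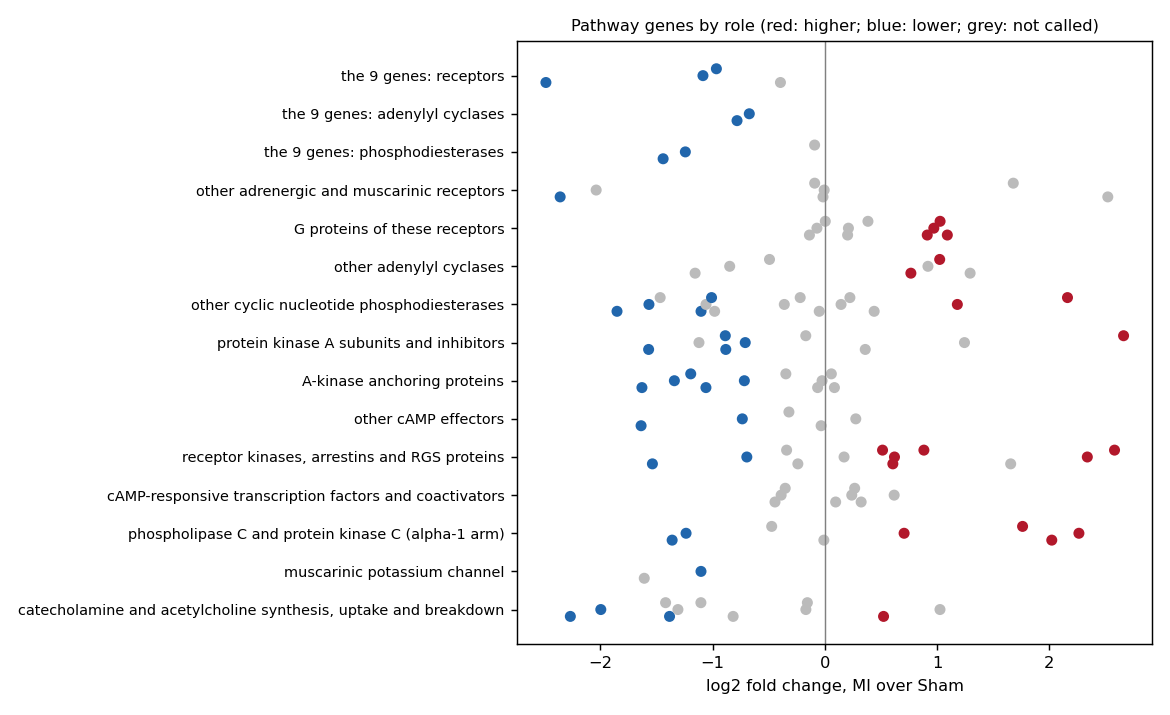
Log2 fold change in MI over Sham (TMM scale) of each tested gene of the pathway by role, with 1 point per gene; red points were called higher, blue lower, and grey points did not pass the test. The receptors, adenylyl cyclases and phosphodiesterases among the 9 genes lie below 0, whereas the lists of G proteins and other adenylyl cyclases hold only higher calls. Chrm1 and Th, without a count in any Sham library, are not drawn.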

How the data were processed

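Per gene, identified by Ensembl ID, the authors deposited raw read counts without any normalization. The submitters' processing notes name HISAT, featureCounts 1.5.0-p3, DESeq 1.8.3 and GRCm38, whereas the strand setting and the treatment of reads with several matches have no source here. A SMARTer kit and 1.3 µg of RNA were used per library, per the labels' protocols. Separate animals are not stated for the libraries, so p-values reflect the spread among these samples, which may be technical. The floor of 3 counts covers counting error only.

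These counts went into edgeR 4.0.16 under R 4.3.3: filterByExpr on the 3 groups (19326 of 55421 genes kept), TMM scaling, 1 quasi-likelihood fit of all 9 libraries with 1 mean per group (common dispersion 0.150), and Benjamini-Hochberg adjustment over all tested genes, called under 0.05. An adjusted p is from this fit unless DESeq2 is named. The standard error (SE) is the absolute log2 fold change over the square root of F, and CPM are over TMM-scaled library sizes. DESeq2 1.42.0, other scalings, filters and sample sets served as alternatives. Figures were drawn with matplotlib in Python.

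The 9 genes and the lists were chosen with earlier results of these data known. Symbols and positions come from a RefSeq gene table for GRCm38.p6, which matched all 9 genes and 91.5% of tested genes. Sequences were not used here. The named genes are the 9 and, of each other list, up to 2 called genes per direction with the most extreme fold changes in each comparison, or the gene with the highest mean level where none was called. Gnas, Kcnj3, Adrb3, Th, Slc18a3, Chat and the chamber genes were named after their values were seen.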

Additional observations from a re-analysis of the deposited data

How the results depend on the processing

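Over 22 alternatives, 594 log2 fold changes of single genes were recomputed: 495 kept direction and side of the threshold and 28 changed sign. Over all of them, changes of sign included, 53 calls were lost and 26 gained. Causes were not tested. Genes called over all in MI versus Sham were 10172 with total counts, 10781 with cardiomyocyte scaling and 4806 to 6701 with single libraries left out. In MI_ART versus Sham they were 8156 with total counts, 6457 with cardiomyocyte scaling, 5941 with only the groups compared, 5926 with the replicate block and 2051 to 6330 with single libraries left out (2051 without MI_ART 1, 6330 without MI 4). In MI_ART versus MI they were 93 with DESeq2, 0 with only the groups compared, 0 to 3 with single libraries left out, and 1 with upper-quartile factors, total counts, cardiomyocyte scaling, no low-count filter, the replicate block, the chamber covariate (Myl7 over Myl2) or either pair of libraries left out. Of the 9 genes, those called in MI versus Sham were 2 with total counts, 3 with cardiomyocyte scaling or with total counts without mitochondrial genes, 4 without a low-count filter or with only the groups compared, and 3 to 7 with single libraries left out; 5 were called with the chamber covariate, and DESeq2 called 7. In MI_ART versus Sham they were 2 with total counts, cardiomyocyte scaling or a mean CPM of at least 1, 3 with DESeq2 or without MI 4 and MI_ART 3, 4 with only the groups compared, 5 with the replicate block or without MI 4 and MI_ART 2, 0 without a filter or without mitochondrial counts, and 0 to 4 with single libraries left out. Log2 fold changes that changed sign in MI versus Sham were, with total counts, 0.43 (Adrb1), 0.0505 (Adcy5), 0.15 (Adcy6) and 0.75 (Pde4b), and with cardiomyocyte scaling 0.66 (Adrb1), 0.0948 (Adra1b), 0.37 (Adcy5), 0.43 (Adcy6) and 0.96 (Pde4b). Pde4b also turned to 0.29 without mitochondrial counts and 0.0262 without MI 4 and MI_ART 2, with -0.24 to 0.0216 when single libraries were left out. In MI_ART versus Sham, the values were 0.32 (Adra1b), 0.18 (Adcy5) and 0.42 (Adcy6) with total counts, 0.39 (Adra1b), 0.22 (Adcy5) and 0.48 (Adcy6) with cardiomyocyte scaling, 0.0905 (Adcy6) without mitochondrial counts, and, with single libraries left out, -0.0534 to 0.18 for Adrb1 and -0.0389 to 0.17 for Pde4b. In MI_ART versus MI they were -0.15 (Adcy5) and -0.10 (Pde4b) with cardiomyocyte scaling, -0.0395 (Chrm2) with the replicate block, -0.28 (Chrm2) and -0.0249 (Pde4d) without MI 4 and MI_ART 2, and -0.03 to 0.52 for Chrm2 with single libraries left out. Leaving out 1 of 3 libraries cannot move a mean log2 ratio by more than the spread used here, so no stability is read from it. In MI_ART versus MI, differences changed sign for Pde4b over Pde4d (-0.53 to 0.03), Pde3a over Pde4d (-0.23 to 0.19) and Chrm2 over Adrb1 (-0.39 to 0.02). In MI_ART versus Sham, Pde3a over Pde4d did (-0.003 to 0.41). The pair MI 4 and MI_ART 2 and the scaling without mitochondrial counts were chosen after seeing the data.

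No pairing by replicate number was seen: deviations from group means of same-numbered libraries correlated at -0.035 to 0.093 over 7 pairs, against -0.121 to 0.108 for other pairs. With 3 libraries per group these ranges cannot exclude a pairing. With the replicate block, the genes called among the 9 numbered 6 (MI versus Sham), 0 (MI_ART versus MI) and 5 (MI_ART versus Sham). Number 4 occurs only in MI, so the block fits MI 4 by itself and that library does not enter the differences between groups. The block is thus also close to a fit without MI 4. In MI versus Sham the log2 fold change of Adra1a was -2.25 with the block and -2.49 in the main fit. The biological coefficient of variation was 0.388 with 3 libraries per group, and each of the 9 genes had at least 110 counts in every library.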

Other observations

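Other genes of this system were counted mainly in 1 or 2 libraries. Adrb3, the beta-3 adrenergic receptor of fat tissue, was at 0.160, 5.25 and 0.345 CPM in MI_ART 1 to 3, 0.137, 0.129 and 8.09 CPM in MI 2, MI 3 and MI 4, and 1.16, 0.829 and 0.613 CPM in Sham 1 to 3. The summed level of 5 adipocyte markers was 24.5, 76.1 and 23.8 CPM in MI_ART 1 to 3, 20.6, 19.6 and 132 CPM in MI 2, MI 3 and MI 4, and 76.1, 86.8 and 47.2 CPM in Sham 1 to 3. Without MI 4 and MI_ART 2, the infarcted libraries highest in both, 6 of the 9 genes were called lower in MI versus Sham.

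Genes of autonomic neurons stood out in MI 4. Th, which encodes the rate-limiting enzyme of catecholamine synthesis, had 194 counts in MI 4, 0 to 18 in the other infarcted libraries and none in Sham libraries. Slc18a3, the vesicular acetylcholine transporter, had 58 counts in MI 4 and none in any other library. Chat, the acetylcholine-synthesizing enzyme, had 21 counts in MI 4, 4 in Sham 1 and none elsewhere. MI 4 was also the library with the lowest values of Adra1a, Chrm2, Pde3a and Pde4d, and whether nerve tissue in the sample bears on those values was not tested.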
